A study of Mus musculus with 2 samples.

Results

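The 8 genes described here are the interferon genes Ifng and Ifnb1, the interferon receptor genes Ifngr1, Ifngr2, Ifnar1 and Ifnar2, and the genes of 2 shared components, the receptor chain Il10rb and the kinase Tyk2. They were chosen by name out of 55401 genes in the files. All 8 had at least 1 UMI in kept cells, where a UMI (unique molecular identifier) counts 1 captured RNA molecule. The question was which cell classes made interferon and which carried its receptors in each library. All animals were C57BL/6J mice aged 10 weeks. The metastasis library pooled 3 brains of mice that had received B16/F10-BrM cells, a mouse melanoma line, by intracranial injection. The naive library pooled 3 brains titled as naive, and the labels name no sham injection. Both pools were dissociated, freed of myelin and enriched with beads against ACSA-2, an antigen of astrocytes. There was 1 library per group, so variation between animals was not measured. All intervals are at 95% and cover counting error only.

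Interferons are cytokines that are released by immune and infected cells and sensed by most other cells. Type II interferon, encoded by Ifng, is made mainly by T cells and NK cells. It binds a receptor whose ligand-binding chain comes from Ifngr1 and whose signalling chain comes from Ifngr2. Type I interferons, among them the product of Ifnb1, bind the chains encoded by Ifnar1 and Ifnar2, and the kinase Tyk2 sits on the Ifnar1 chain. The Il10rb chain is shared by the receptors for type III interferons and for interleukin-10 and its relatives. In the brain, microglia respond strongly to Ifng, and glia, ependyma and vessels raise antigen presentation and chemokine genes after interferon.

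Of the receptor genes, 4 lie close together on the plus strand of chromosome 16, within 192.8 kb (GRCm38, GENCODE M21). They are Ifnar2 at 91372783 to 91405589 with 9 exons in its principal transcript, Il10rb at 91406164 to 91425834 with 7 exons, Ifnar1 at 91485238 to 91507441 with 12 exons, and Ifngr2 at 91547072 to 91565623 with 7 exons. Ifngr1 lies at 19591949 to 19610229 on the plus strand of chromosome 10, with 7 exons. The ligand gene Ifng lies on the same chromosome and strand at 118441046 to 118445892, with 4 exons, and Ifnb1 is a gene of 1 exon on the minus strand of chromosome 4 at 88522025 to 88522774. Tyk2 spans 21104068 to 21131243 on the minus strand of chromosome 9, with 25 exons. The annotation overlaps Tyk2 with the antisense gene 1700084C06Rik, which had 37 UMIs in kept cells in metastasis, against 50 in naive. On the same strand, it overlaps Ifnar2 and Il10rb with Gm21970, and Ifng with Gm49751. Gm21970 had 0 UMIs in both libraries, and Gm49751 had 2 in kept cells in metastasis and 0 in naive. Whether the counting used strand was not given in the sources used here.

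The promoters of a ligand gene and of a receptor gene are shown because the ligand was counted in few cells and the receptor chains in nearly every class. Both are the 250 bases before the annotated start, from RefSeq on GRCm38.p6. In the Ifng promoter, chr10:118440796-118441045 on the plus strand, the capitals mark TATAAA, and in the Ifngr2 promoter, chr16:91546809-91547058 on the plus strand, they mark CG dinucleotides.
Ifng: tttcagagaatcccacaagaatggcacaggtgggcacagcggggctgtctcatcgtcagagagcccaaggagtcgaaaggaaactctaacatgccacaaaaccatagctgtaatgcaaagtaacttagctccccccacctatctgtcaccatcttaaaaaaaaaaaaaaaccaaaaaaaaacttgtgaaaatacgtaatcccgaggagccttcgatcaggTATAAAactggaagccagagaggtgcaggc
Ifngr2: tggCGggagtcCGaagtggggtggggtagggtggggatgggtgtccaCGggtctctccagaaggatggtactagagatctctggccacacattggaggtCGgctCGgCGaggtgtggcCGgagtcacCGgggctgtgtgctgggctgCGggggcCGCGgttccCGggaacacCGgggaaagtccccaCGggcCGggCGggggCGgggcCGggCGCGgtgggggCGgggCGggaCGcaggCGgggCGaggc
The TATAAA letters, searched on both strands, were present in the promoters of Ifng and Ifnb1 and in 12.4% of all 32851 promoters of this length. They were in none of the 5 promoters of Ifngr1, Ifngr2, Ifnar1, Ifnar2 and Tyk2. The receptor and kinase promoters held 11 to 25 CG dinucleotides, with 25 in Ifngr2, against 6 in Ifng, 1 in Ifnb1 and a median of 6 over all promoters. TTCNNNGAA was found in the promoters of Ifng and Ifnar2 and in 7.02% of all. Of the 8 genes, 7 were matched in the RefSeq table. The motif match is a description of these letters and not of binding.

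Sequencing gave 89193669 UMIs for metastasis and 69445557 for naive. After filtering, 12920 metastasis cells (median 2814 UMIs) and 13155 naive cells (median 2765 UMIs) remained. Marker lists gave clusters their names, written with "-like", and 13 named classes reached 50 cells in metastasis and 12 in naive. Astrocyte-like cells, the type the beads enrich for, were 327 in metastasis and 1034 in naive, and oligodendrocyte-like cells were the most frequent with 5275 in metastasis and 5533 in naive. Macrophage/monocyte-like cells numbered 1676 in metastasis and 88 in naive, and melanoma-like cells 680 in metastasis and 18 in naive. Since release the submitters have swapped the 2 sample titles, and the current ones were used here. The melanocyte gene Pmel, which the injected line expresses, had 174742 UMIs in metastasis and 4774 in naive over all barcodes. Of the kept barcodes, 47 occurred in both libraries where 25.0 would be shared by chance, 12 of them in the same class. None of the 18 naive melanoma-like barcodes was kept in metastasis. Where the melanoma-like cells in naive came from was not tested. Whether other naive classes, such as the 88 macrophage/monocyte-like cells, hold cells of the same source was not tested either.

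Ifng was counted in few cells, and T/NK-like cells held more of its UMIs than any other class. Over all kept cells there were 73 Ifng UMIs in 36 cells in metastasis and 65 UMIs in 37 cells in naive. T/NK-like cells held 42 of these UMIs in metastasis, or 57.5% (exact binomial interval 45.4% to 69.0%), although the class was 109 of 12920 cells. In naive they held 47 UMIs, or 72.3% (59.8% to 82.7%), with 74 cells in the class. By cells, 15 of the 36 with Ifng were T/NK-like in metastasis and 19 of 37 in naive. A T/NK-like cell with Ifng had between 1 and 10 UMIs in metastasis and between 1 and 8 in naive. The intervals of the UMI shares treat UMIs as independent and do not cover this grouping within cells. Ifng was left out of the genes the cells were clustered on, and no marker list used for naming holds it. With 1 library per group, its place in this class is a description.

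**Figure D1:**
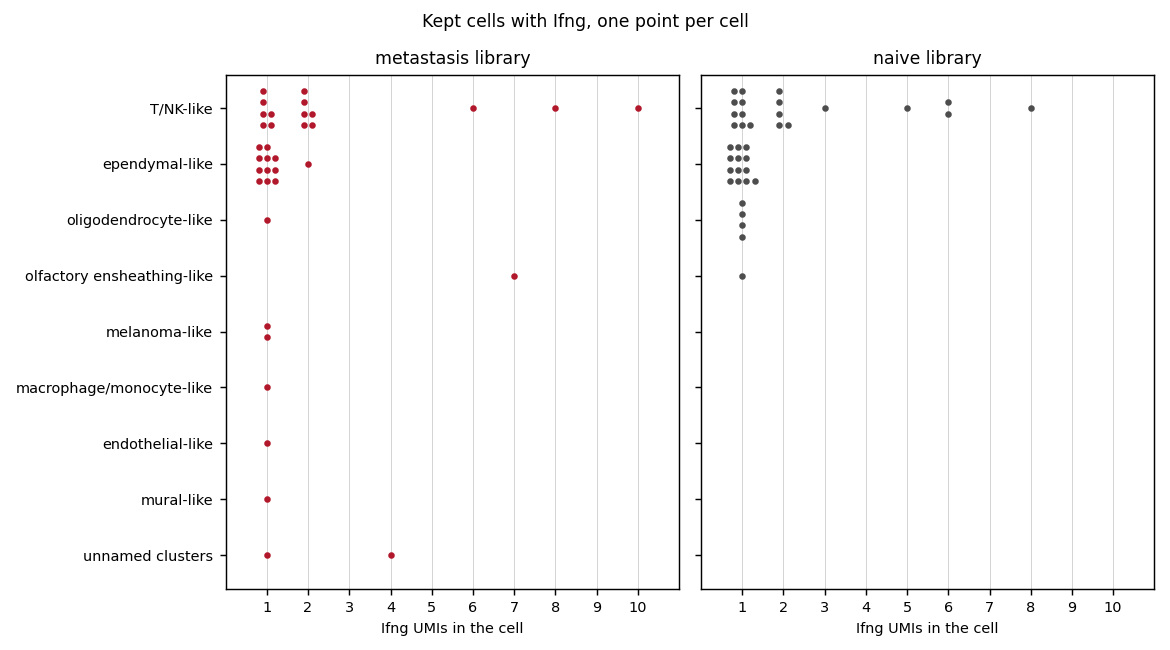
Each point is 1 kept cell with Ifng, placed by its Ifng UMIs (x axis) and its class (y axis), with metastasis at left and naive at right; points at the same count are spread sideways and up for visibility. Cells with 3 or more UMIs were T/NK-like, apart from an olfactory ensheathing-like cell with 7 UMIs and a cell of an unnamed cluster with 4 UMIs in metastasis.

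The level of Ifng in T/NK-like cells was 219 CPM in metastasis, against 381 CPM in naive, where CPM is UMIs per 1000000 UMIs of the class. The log2 ratio of metastasis over naive was -0.80, within 2-fold, with an exact conditional interval of -1.43 to -0.17. That interval treats UMIs as independent. The 42 UMIs in metastasis lay in 15 cells and the 47 in naive in 19, and this grouping is not covered. The interval thus does not settle whether the ratio lies below 0. In this class 3.37% of 2823 measured genes were at least 2-fold lower and 6.94% at least 2-fold higher. The share of T/NK-like cells with an Ifng UMI was 13.8% (15 of 109 cells, 7.91% to 21.7%) in metastasis and 25.7% (19 of 74 cells, 16.2% to 37.2%) in naive. The intervals of these shares overlap, and the median depths were close at 1461 UMIs in metastasis and 1439.5 in naive. After thinning each cell to 1000 UMIs the shares were 9.17% in metastasis and 18.9% in naive.

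Within the T/NK-like class, cells with a Cd8a or Cd8b1 UMI and no Cd4 UMI, the surface pattern of cytotoxic T cells, held 19 Ifng UMIs in metastasis and 21 in naive. There, 5 of 29 cells had Ifng in metastasis (17.2%, 5.85% to 35.8%) and 9 of 20 in naive (45.0%, 23.1% to 68.5%). Cells with Cd4 and no Cd8 UMI, the helper pattern, had Ifng in 0 of 13 cells in metastasis, with an exact upper bound of 24.7%, and in 2 of 13 cells with 9 UMIs in naive. NK marker genes without a T cell receptor gene marked 9 cells in metastasis, 2 of them with Ifng, and 3 cells in naive, 2 of them with Ifng. All these groups are small, and their intervals overlap between the libraries.

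Outside the T/NK-like class, Ifng was mostly counted as 1 UMI per cell. There were 31 UMIs in 21 cells in metastasis and 18 UMIs in 18 cells in naive. In metastasis 13 of the 31 UMIs came from 4 cells that also carried T cell receptor or NK marker UMIs, among them a cell with 7 Ifng UMIs and 9 NK marker UMIs that had clustered with olfactory ensheathing-like cells. Also among them, a cell with 4 Ifng UMIs and a cell with 1 lay in an unnamed cluster. They had 40 and 45 T cell receptor marker UMIs, yet count here as outside the T/NK-like class. In naive 3 of the 18 cells carried such markers. The other 17 cells in metastasis and 15 in naive had no UMI of these marker genes.

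Ependymal-like cells, which line the ventricles, were next by count and held 13 Ifng UMIs in 12 of 2305 cells in metastasis (0.521%, 0.269% to 0.908%) and 13 UMIs in 13 of 3227 cells in naive (0.403%, 0.215% to 0.688%). Oligodendrocyte-like cells of similar depth had Ifng in 1 of 5275 metastasis cells (0.0190%) and 4 of 5533 naive cells (0.0723%). Median depths were 3015 UMIs in metastasis and 3160 in naive for ependymal-like cells, and 2740 in metastasis and 2970 in naive for oligodendrocyte-like cells. The ependymal levels were 1.61 CPM in metastasis against 0.992 CPM in naive, and barcodes of 100 to 300 UMIs, which hold mostly free RNA, had 2.48 CPM in metastasis against 0.935 CPM in naive. The ependymal share was above that of oligodendrocyte-like cells beyond counting error in each library, while its level was not above free RNA beyond counting error in either. Thinned to 1000 UMIs, 3 ependymal-like cells in metastasis and 2 in naive kept an Ifng UMI, beside 1 oligodendrocyte-like cell in each. Of the 13 metastasis UMIs, 10 lay in an ependymal-like cluster led by Ifit3, C3 and Gbp2 that held 942 metastasis cells and 12 naive cells. Choroid plexus epithelium-like cells, at medians of 10584 UMIs in metastasis and 12563 in naive, had no Ifng UMI, which at 3 counts per class allows up to 0.937 CPM in metastasis against 0.403 CPM in naive.

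Ifnb1 was close to absent from kept cells. There were 4 UMIs in 3 cells in metastasis and 0 UMIs in naive. The metastasis UMIs were 2 in a macrophage/monocyte-like cell of 7631 UMIs and 1 each in melanoma-like cells of 8241 and 53504 UMIs. Over all barcodes, kept or not, Ifnb1 had 11 UMIs in metastasis and 0 in naive. The 13 Ifna genes, Ifnab and Ifne, which are also type I ligands, had no UMI in any barcode of either library, nor had the type III ligands Ifnl2 and Ifnl3. Ifnk had 2 UMIs in kept cells of each library and Ifnz 1 in metastasis and 0 in naive. At these depths a count of 0 limits captured RNA, not the protein.

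The cytokines that induce Ifng had different leading classes by count. Il12b, which encodes a subunit of interleukin-12, had 27 UMIs in 7 kept cells in metastasis, 26 of them in macrophage/monocyte-like cells, and 0 UMIs in naive. Il27 had 113 UMIs in metastasis, 101 of them in that class, and 9 in naive, 4 of them in microglia-like cells. As levels within macrophage/monocyte-like cells, Il27 was at 10.9 CPM in metastasis against 3.88 CPM in naive, with the log2 ratio at 1.49 whose interval of -1.02 to 6.81 includes 0. Il27 was the only gene of the 5 measured from this list that passed 2-fold in that class, where 7.03% of measured genes were 2-fold higher. Its partner subunit gene Ebi3 was at 50.4 CPM in metastasis against 58.2 CPM in naive, and 48 of its 77 naive UMIs were in microglia-like cells. Il18, whose product raises Ifng in T and NK cells, was highest as a level in astrocyte-like cells, at 236 CPM in metastasis against 232 CPM in naive. Oligodendrocyte-like cells, the largest class, held more of its UMIs than any other class, at 106 CPM in metastasis against 107 CPM in naive. Its receptor gene Il18r1 was counted mostly in T/NK-like cells, with 28 of 38 UMIs in metastasis and 27 of 32 in naive.

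The receptor genes were counted in every class, at levels that differed many-fold between classes. Ifngr1, the ligand-binding chain of the type II receptor, was highest in microglia-like cells, at 737 CPM (678 to 799) in metastasis and 793 CPM (742 to 847) in naive. T/NK-like cells followed at 490 CPM (396 to 599) in metastasis and 438 CPM (329 to 571) in naive. Macrophage/monocyte-like cells were at 226 CPM (216 to 236) in metastasis and 349 CPM (281 to 429) in naive. Without doublet removal the metastasis order of the first classes changed, with T/NK-like cells at 510 CPM and microglia-like cells at 497 CPM, and with at least 2000 UMIs per cell microglia-like cells led there at 341 CPM. With each cell named by its own marker UMIs, without clusters, microglia-like cells led at 430 CPM in metastasis. The first 3 steps of the reported order were free of overlapping intervals in metastasis, while in naive the T/NK-like and macrophage/monocyte-like intervals overlapped. Olfactory ensheathing-like, fibroblast-like and endothelial-like cells came next, between 99.9 and 107 CPM in metastasis and between 91.9 and 114 CPM in naive, with overlapping intervals. In metastasis, ependymal-like cells were at 79.7 CPM, astrocyte-like cells at 63.7 CPM and mural-like cells at 56.8 CPM, against 76.5, 70.8 and 48.2 CPM in naive. At the low end, choroid plexus epithelium-like cells had intervals of 20.6 to 32.1 CPM in metastasis and 13.2 to 19.1 CPM in naive, where they were the lowest class. Oligodendrocyte-like cells were at 25.1 CPM in metastasis against 23.6 CPM in naive, and melanoma-like cells at 13.3 CPM in metastasis.

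In shares of cells, an Ifngr1 UMI was found in 71.3% of microglia-like cells in metastasis and 74.3% in naive, at median depths of 1528 UMIs in metastasis and 1708 in naive. Oligodendrocyte-like cells, which are deeper, had 7.62% in metastasis and 7.66% in naive. Thinned to 1000 UMIs, the microglia-like shares were 54.0% in metastasis and 56.3% in naive, and the oligodendrocyte-like shares 2.75% in metastasis and 2.17% in naive. Free RNA, taken from barcodes of 10 to 100 UMIs, held 66.2 CPM of Ifngr1 in metastasis and 62.6 CPM in naive, on 17 UMIs in each. Levels of 7 of 13 classes in metastasis and 8 of 12 in naive exceeded it. Against barcodes of 100 to 300 UMIs, 6 of 13 in metastasis and 8 of 12 in naive did. In metastasis the macrophage/monocyte-like class held 42.9% of the Ifngr1 UMIs and 13.9% of all UMIs of kept cells. In naive the ependymal-like class held 31.2% and the microglia-like class 28.2%.

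Ifngr2, the signalling chain, had a narrower set of high classes. Microglia-like cells were at 198 CPM (168 to 231) in metastasis and 174 CPM (151 to 200) in naive. Macrophage/monocyte-like cells were at 152 CPM (144 to 160) in metastasis and 147 CPM (104 to 202) in naive. Macrophage/monocyte-like cells led instead in both libraries without doublet removal, at 148 CPM in metastasis against 141 CPM in naive, and in metastasis with at least 2000 UMIs per cell, at 154 CPM. In metastasis, endothelial-like cells at 94.2 CPM, mural-like cells at 84.5 CPM, melanoma-like cells at 72.7 CPM and fibroblast-like cells at 57.7 CPM came next. T/NK-like cells, high in Ifngr1, had 5 Ifngr2 UMIs in metastasis (26.1 CPM, 8.46 to 60.8) and 1 UMI in naive (8.10 CPM, 0.205 to 45.1), beside free RNA at 38.9 CPM in metastasis against 18.4 CPM in naive, values inside these intervals. The count of Ifngr2 per Ifngr1 UMI varied widely, from 0.0532 in T/NK-like cells to 5.46 in melanoma-like cells in metastasis. Microglia-like cells had 0.268 in metastasis and 0.219 in naive. These ratios compare UMI counts of 3' ends, which are not scaled by transcript length.

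Both Ifngr1 and Ifngr2 UMIs were found together in 34.2% of 1676 macrophage/monocyte-like cells in metastasis (32.0% to 36.6%) and 21.6% of 88 in naive (13.5% to 31.6%). Microglia-like cells had both in 18.6% in metastasis and 20.1% in naive, and T/NK-like cells in 4 of 109 metastasis cells and 1 of 74 naive cells. Such shares grow with depth. At 1000 UMIs per cell, microglia-like cells had the highest share with 10.3% in metastasis and 7.66% in naive, and macrophage/monocyte-like cells had 3.10% in metastasis and 3.41% in naive. The oligodendrocyte-like share was 0.284% in metastasis and 0.253% in naive before thinning. Melanoma-like cells, with a median of 30014 UMIs in metastasis, had an Ifngr2 UMI in 81.2% of cells, and in 9.12% after thinning.

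The type I receptor genes had other leading classes than the type II genes. Ifnar1 was highest in endothelial-like cells in naive, at 242 CPM (195 to 296), with no overlap with the next class. In metastasis the highest level was that of T/NK-like cells at 104 CPM (63.7 to 161), on 20 UMIs, and its interval overlapped that of endothelial-like cells at 67.9 CPM (58.6 to 78.4). With only the endothelial-like cluster present in both libraries, endothelial-like cells led in metastasis for Ifnar1 (276 CPM), Ifnar2 (233 CPM), Il10rb (292 CPM) and Tyk2 (26.5 CPM). At least 2000 UMIs per cell left no T/NK-like cluster, and neutrophil-like cells then led in metastasis for Ifnar1 (90.8 CPM) and Ifnar2 (152 CPM). Neighbours in the Ifnar1 order overlapped down to oligodendrocyte-like cells, and choroid plexus epithelium-like cells were below all others at 11.9 CPM in metastasis against 12.5 CPM in naive. Microglia-like cells, highest in the type II genes, had 43.3 CPM of Ifnar1 in metastasis and 42.0 CPM in naive.

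Ifnar2 was highest in microglia-like cells in metastasis, at 180 CPM (151 to 212), followed by fibroblast-like cells at 149 CPM (109 to 200) and macrophage/monocyte-like cells at 148 CPM (140 to 156), with overlapping intervals. Without doublet removal, macrophage/monocyte-like cells led there at 145 CPM, beside microglia-like cells at 143 CPM. In naive, endothelial-like cells at 200 CPM (157 to 250) and microglia-like cells at 170 CPM (147 to 195) led and overlapped. Choroid plexus epithelium-like cells had more UMIs of Ifnar2 than of Ifnar1, with 59.3 CPM of Ifnar2 in metastasis and 55.9 CPM in naive. Their metastasis level was close to that of free RNA, given below. They had 5.0 Ifnar2 UMIs per Ifnar1 UMI in metastasis and 4.47 in naive. Microglia-like cells had 4.15 in metastasis and 4.04 in naive. Ependymal-like cells had the lowest Ifnar2 levels, 23.1 CPM in metastasis against 14.3 CPM in naive. Free RNA held 58.4 CPM of Ifnar2 in metastasis, on 15 UMIs, and 44.2 CPM in naive, on 12 UMIs. Levels of 7 of 13 classes in metastasis and 8 of 12 in naive exceeded it. Against barcodes of 100 to 300 UMIs, 5 of 13 in metastasis and 8 of 12 in naive did.

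Il10rb was led by macrophage/monocyte-like cells in metastasis, at 201 CPM (192 to 211), with microglia-like cells at 185 CPM (156 to 217) and overlapping intervals. In naive, endothelial-like cells at 234 CPM (188 to 288) and microglia-like cells at 183 CPM (159 to 209) led. Melanoma-like cells had 121 CPM of Il10rb and held 47.3% of its UMIs in metastasis while holding 31.3% of all UMIs. They also held 39.3% of the Ifngr2 UMIs. An Il10rb UMI was found in 88.8% of melanoma-like cells, and in 13.1% after thinning, against 1.88% of oligodendrocyte-like cells in metastasis and 0.815% of them after thinning. Oligodendrocyte-like cells had the lowest Il10rb levels, 6.01 CPM in metastasis against 1.96 CPM in naive.

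Tyk2 was the least counted gene of the receptor side, with 608 UMIs in kept cells of metastasis and 259 in naive. Its levels were highest in T/NK-like cells, 26.1 CPM on 5 UMIs in metastasis and 24.3 CPM on 3 UMIs in naive, and microglia-like cells, 22.9 CPM in metastasis against 18.4 CPM in naive. With at least 2000 UMIs per cell, astrocyte-like cells led in metastasis at 24.3 CPM and microglia-like cells in naive at 15.7 CPM. All neighbouring classes in the Tyk2 order had overlapping intervals in both libraries. The order of classes by level and by share differed for most genes, and melanoma-like and choroid plexus epithelium-like cells had the most UMIs per cell. For 4 of 12 combinations of gene and library the class of highest level also had the highest share, and for 9 of 12 after thinning.

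**Figure D2:**
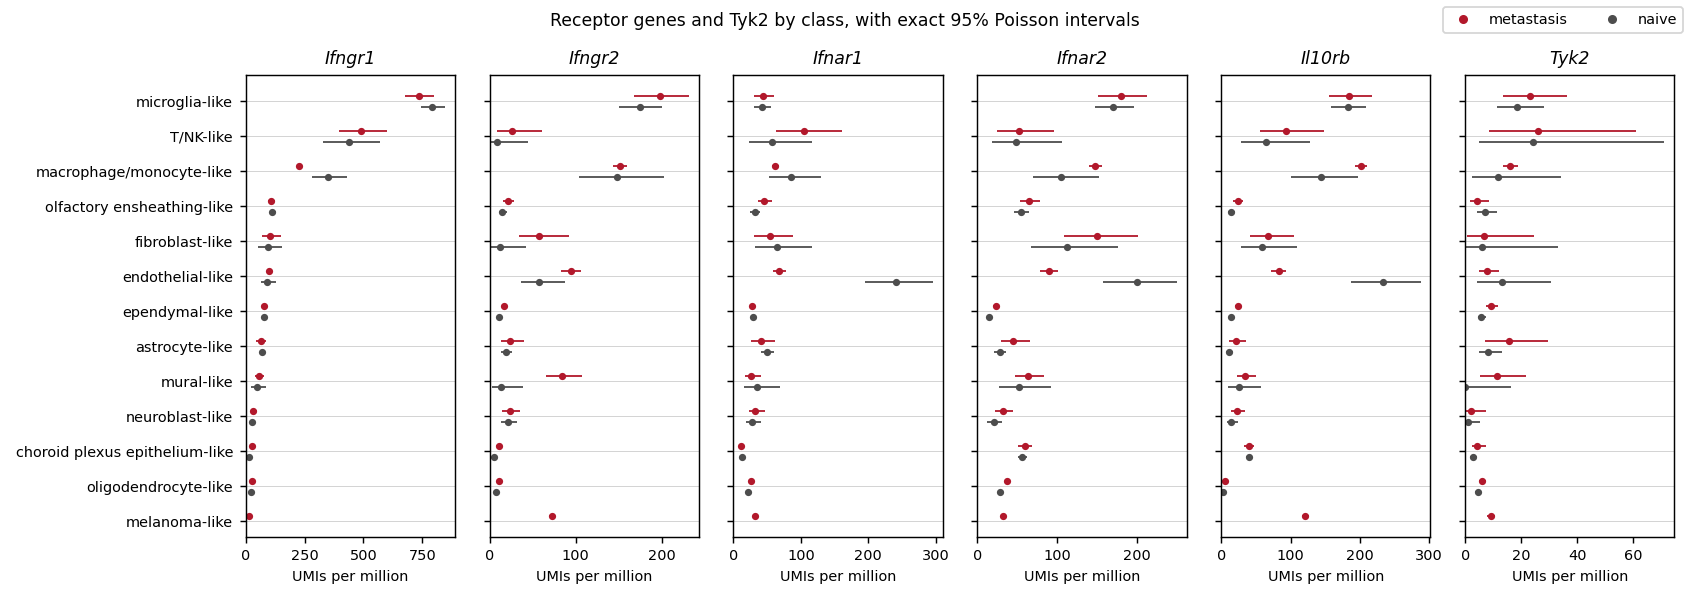
Levels of the 6 receptor-side genes in CPM (x axes, separate scales) for each class with at least 50 cells (y axis), with metastasis above naive; points are summed levels and bars exact 95% Poisson intervals. Ifngr1 and Ifngr2 are highest in microglia-like cells in both libraries at these settings, and Ifnar1, Ifnar2 and Il10rb are lower in metastasis than in naive endothelial-like cells.

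Between the libraries, the receptor genes were within 2-fold in most classes. A ratio was given for 65 combinations of gene and class, those with at least 20 UMIs in 12 classes. In metastasis 3 were at least 2-fold higher, 3 at least 2-fold lower and 59 within 2-fold. Among all genes, 2.18% to 22.9% were 2-fold higher and 1.22% to 17.3% 2-fold lower, depending on the class. The 2-fold higher shares were 2.46% in astrocyte-like, 3.59% in neuroblast-like and 2.54% in olfactory ensheathing-like cells. The 2-fold lower shares were 1.31% in choroid plexus epithelium-like, 1.32% in ependymal-like, 1.35% in oligodendrocyte-like, 2.41% in microglia-like, 2.85% in neuroblast-like, 3.29% in fibroblast-like, 3.7% in astrocyte-like, 14.4% in macrophage/monocyte-like and 16.1% in mural-like cells. The lower bound of the ratio lay above 0 in 15 combinations and the upper bound below 0 in 4. No Ifngr1 or Tyk2 ratio passed 2-fold in any class. In microglia-like cells the log2 ratios of the 5 receptor genes lay between -0.11 and 0.18, with intervals that include 0.

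**Figure D3:**
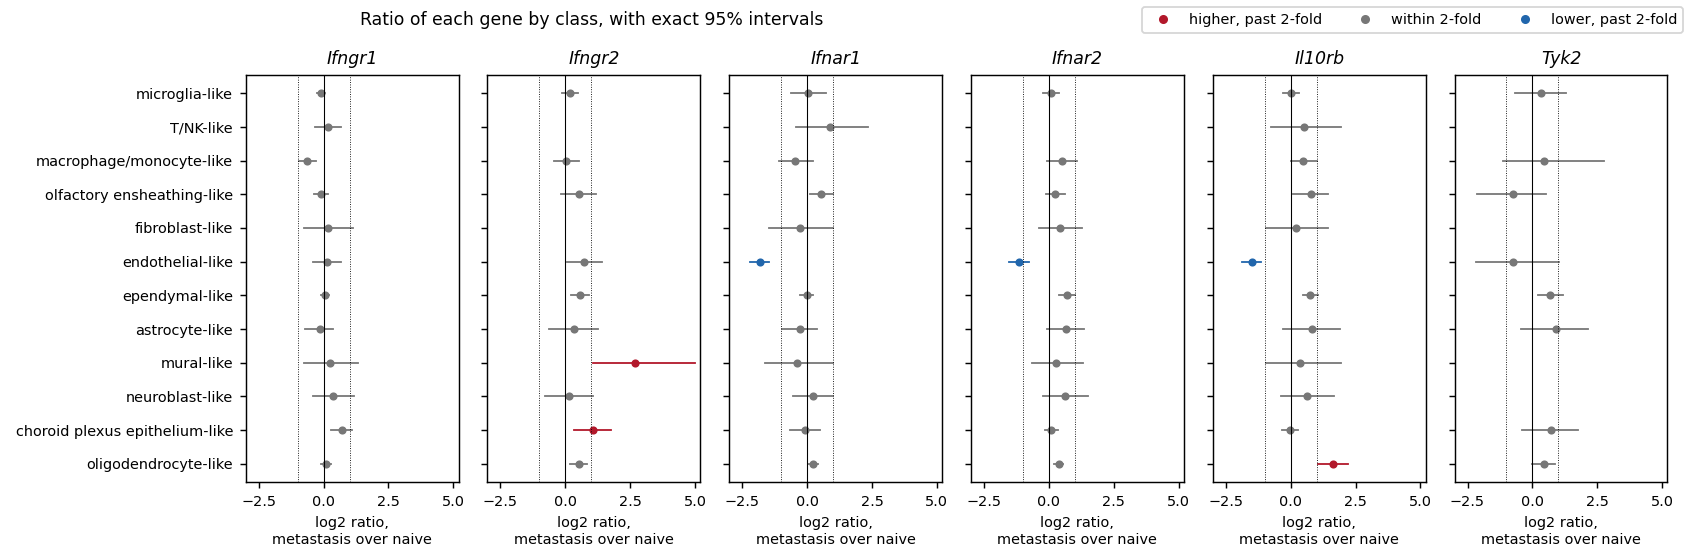
Log2 ratios of metastasis over naive (x axes) for each receptor-side gene in each class measured in both libraries (y axis); points are ratios, bars exact 95% intervals for counting error, dotted lines mark 2-fold. Of 65 ratios, 3 lie past 2-fold higher and 3 past 2-fold lower, with the 3 lower ones all in endothelial-like cells.

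The 3 lower ratios were all in endothelial-like cells, where 17.3% of 10039 measured genes were 2-fold lower and 17.4% 2-fold higher. Ifnar1 was at 67.9 CPM in metastasis, against 242 CPM in naive, with the log2 ratio at -1.83 (-2.20 to -1.45). Il10rb was at 82.7 CPM in metastasis, against 234 CPM in naive (-1.50, -1.86 to -1.13), and Ifnar2 at 89.5 CPM in metastasis, against 200 CPM in naive (-1.16, -1.53 to -0.77). In the same cells neither type II gene passed 2-fold, with Ifngr1 at 99.9 CPM in metastasis against 91.9 CPM in naive (0.12, -0.39 to 0.67) and Ifngr2 at 94.2 CPM in metastasis against 57.8 CPM in naive (0.71, 0.08 to 1.40). The class consisted of different clusters in the libraries.

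A cluster led by Ly6c1, Slco1a4 and Cldn5, genes of blood-brain barrier endothelium, held all 115 naive endothelial-like cells and 52 of the 201 in metastasis. The other 149 metastasis cells formed a cluster led by Igfbp3, Col4a1 and Plvap that had no naive cell. In the shared cluster Ifnar1 was at 276 CPM in metastasis against 242 CPM in naive, with the log2 ratio at 0.19 (-0.33 to 0.70). Ifnar2 was at 233 CPM in metastasis against 200 CPM in naive (0.23, -0.34 to 0.78), and Il10rb at 292 CPM in metastasis against 234 CPM in naive (0.32, -0.19 to 0.82). All 3 point estimates in the shared cluster were above 0, and their intervals include 0. The cluster found in metastasis had 52.8 CPM of Ifnar1, 79.1 CPM of Ifnar2 and 67.5 CPM of Il10rb. Its Ifngr1 level was 99.9 CPM, beside 101 CPM in the shared cluster in metastasis and 91.9 CPM there in naive. Its Ifngr2 level was 97.2 CPM, beside levels in the shared cluster of 53.1 CPM in metastasis against 57.8 CPM in naive. Of 4 measured genes for partner receptors of Il10rb and Tyk2, 2 were 2-fold lower in the class as a whole, the interleukin-6 receptor genes Il6st (-1.33) and Il6ra (-4.39).

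Of the 3 higher ratios, 2 were of Ifngr2. In mural-like cells, the contractile cells of vessel walls, it had 67 UMIs in metastasis and 3 in naive, or 84.5 CPM in metastasis against 13.2 CPM in naive, with the log2 ratio at 2.68 (1.08 to 5.0). In this class 22.9% of 7089 measured genes were 2-fold higher and the median gene was at 0.14 on the log2 scale, and median depths were 4040 UMIs in metastasis and 1553 in naive. An Ifngr2 UMI was found in 30.6% of mural-like cells in metastasis and 2.97% in naive, and after thinning in 8 metastasis cells and 1 naive cell. Fibroblast-like cells had 17 Ifngr2 UMIs in metastasis and 2 in naive, 1 short of the 20 needed for a ratio. In choroid plexus epithelium-like cells, Ifngr2 was at 10.6 CPM in metastasis against 5.10 CPM in naive, with the log2 ratio at 1.06 (0.35 to 1.76), where 3.0% of 11999 genes were 2-fold higher. That ratio was 0.40 with free RNA subtracted, and Ifngr2 in free RNA was itself at 38.9 CPM in metastasis against 18.4 CPM in naive, on 10 UMIs in metastasis and 5 in naive. Barcodes of 100 to 300 UMIs gave 51.9 CPM in metastasis, on 565 UMIs, against 12.5 CPM in naive, on 134 UMIs.

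The third higher ratio was Il10rb in oligodendrocyte-like cells, with 100 UMIs in metastasis and 36 in naive, at 6.01 CPM in metastasis against 1.96 CPM in naive, with the log2 ratio at 1.62 (1.06 to 2.21). Of 15141 genes measured in this class 4.78% were 2-fold higher. Both levels lay far below free RNA, which held 70.1 CPM of Il10rb in metastasis and 29.5 CPM in naive, and the ratio was 0.15 with free RNA subtracted. Macrophage/monocyte-like cells had the only Ifngr1 ratio with an upper bound below 0, at -0.63 (-0.93 to -0.31), relative to a median of -0.10 over all genes of the class. The Spp1 cluster of that class made up 1261 of 1676 metastasis cells and 25 of 88 naive cells. In the other cluster, led by MHC class II genes, Ifngr1 was at 269 CPM in metastasis against 296 CPM in naive, with the log2 ratio at -0.13 (-0.54 to 0.30). In ependymal-like cells, Il10rb (0.76), Ifnar2 (0.69), Tyk2 (0.68) and Ifngr2 (0.57) had lower bounds above 0 and stayed within 2-fold, while Ifngr1 (0.06) and Ifnar1 (-0.02) were near 0. The cluster led by Ifit3 held 942 of the 2305 metastasis cells of this class and 12 of the 3227 naive cells. Without it, Il10rb was at 0.77 (0.40 to 1.14), Ifnar2 at 0.57 (0.18 to 0.95), Tyk2 at 0.62 (0.01 to 1.21) and Ifngr2 at 0.44 (-0.01 to 0.88).

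Genes downstream of the receptors passed 2-fold more often than the receptor genes. Of 12 interferon response genes, all 12 passed 2-fold higher in ependymal-like cells (median log2 ratio 4.17), as did 3.56% of 16396 genes. Without the ependymal-like cluster found almost wholly in metastasis, 11 of 12 passed, with a median of 2.25, as did 3.06% of 15733 genes. An example is Iigp1, an interferon-induced GTPase gene, at 248 CPM in metastasis against 6.33 CPM in naive (5.29), and without that cluster at 41.3 CPM in metastasis against 1.61 CPM in naive (4.68). All 12 were also 2-fold higher in choroid plexus epithelium-like cells (median 2.54), 11 of 12 in oligodendrocyte-like cells (3.05), 11 of 11 in neuroblast-like cells (2.33) and 11 of 12 in fibroblast-like cells (3.13), where 8.09% of 4350 genes were. In microglia-like cells 6 of 10 passed, with a median of 1.03, where 2.18% of all genes did. The list was 2-fold higher for 6 of 12 genes in macrophage/monocyte-like (1.01) and olfactory ensheathing-like cells (1.02), 6 of 8 in astrocyte-like cells (1.78) and 6 of 7 in mural-like cells (1.87). In macrophage/monocyte-like cells Cxcl9, a chemokine gene induced by Ifng, was at 890 CPM in metastasis, against 7.76 CPM in naive (6.84). Endothelial-like cells had a negative median, with 2 genes higher and 5 lower of 12 and a median of -0.84. In that class 17.4% of all genes were higher and 17.3% lower, and its clusters differed between the libraries. Response ratios for the shared endothelial-like cluster alone are not given here. T/NK-like cells had 3 of 7 higher. The list was chosen with earlier results of these libraries known, so its direction is not independent evidence. Ratios of the pathway lists, this list included, were not recomputed with free RNA subtracted. The free RNA fraction, estimated from markers of other classes, was highest in fibroblast-like cells, at 0.677 in metastasis and 0.784 in naive. How much of the response ratios comes from free RNA was not tested.

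Among the kinases and transcription factors that act below the receptors, Stat2 (2.97), Irf9 (2.19), Irf1 (2.14) and Stat3 (1.24) were 2-fold higher in ependymal-like cells. The receptor-bound kinase genes Jak1 (0.02) and Jak2 (0.15) were near 0 there, and Tyk2 was at 0.68. In microglia-like cells Stat2 (1.58) and Irf1 (1.05) were 2-fold higher. In endothelial-like cells, made of different clusters in the libraries, Stat2 (-1.55), Irf9 (-1.09) and Jak2 (-1.05) were 2-fold lower.

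Across the 12 classes measured in both libraries, the receptor level in naive did not rise with the response. The Pearson correlation of log2(CPM + 1) in naive with the median log2 ratio of the response genes was -0.47 for Ifngr1, -0.56 for Ifngr2, -0.69 for Ifnar1, -0.68 for Ifnar2, -0.64 for Il10rb and -0.44 for Tyk2. Spearman values lay between -0.45 and -0.69. The 12 points share the same 2 libraries, and the classes differ in depth. Some classes, endothelial-like cells among them, consist of different clusters in the libraries. These values describe the libraries and carry no test. Microglia-like cells, with the highest Ifngr1, had a response median of 1.03, and oligodendrocyte-like cells, with 23.6 CPM of Ifngr1, had 3.05.

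**Figure D4:**
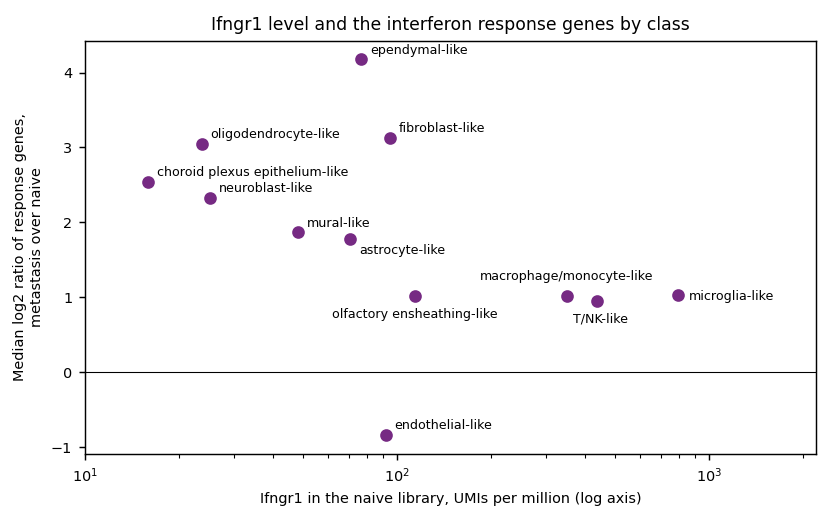
Ifngr1 level in naive in CPM (x axis, log scale) against the median log2 ratio of 12 interferon response genes, metastasis over naive (y axis); each point is 1 class measured in both libraries. Ependymal-like cells are highest at 4.17 (2.25 without the cluster led by Ifit3) with an Ifngr1 level of 76.5. Microglia-like cells are at 1.03 with the highest Ifngr1 level of 793. Endothelial-like cells, made of different clusters in the libraries, are the only class below 0. Free RNA was not subtracted from these values.

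The genes whose levels were most like each receptor gene over 25 points of class and library, by Pearson correlation of log2(CPM + 10) among 12964 genes, differed between the receptors. For Ifngr1 they were Rel (0.91), Nfkb1 (0.91) and Inpp5d (0.90), and for Ifngr2 they were Phf11d (0.93), Erp29 (0.91) and Cgas (0.90). For Ifnar1 the values were lower, with Clec2d, Pml and Xdh at 0.81. For Ifnar2 they were Ier3 (0.86), Anxa3 (0.85) and Klf4 (0.84), for Il10rb Elk3 (0.91), Gpx1 (0.86) and Vamp8 (0.86), and for Tyk2 Zc3h12a (0.89), Sp110 (0.83) and Lcp2 (0.83). These genes were picked as the highest of 12964, so lower values for genes named beforehand are no result. Chains of the same receptor were at 0.55 between Ifngr1 and Ifngr2 and 0.55 between Ifnar1 and Ifnar2. Where these values rank among all genes is not given here. The 2 highest values among the members were 0.79 between Ifnar2 and Il10rb and 0.78 between Ifngr1 and Tyk2.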

How the data were processed

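Cells were profiled with the 10x 3' v3 kit, about 10000 cells loaded per library, per the labels' protocols. STARsolo and GRCm38 are named in the submitters' processing notes, with their version, annotation and options not given in the sources used here. The deposited values are raw UMI counts per gene and barcode, made by the authors, over 55401 genes, with empty barcodes included. From these counts, barcodes were taken from 1000 UMIs and 500 genes upward, with mitochondrial UMIs up to 20%. Scrublet's automatic threshold marked 0 barcodes in metastasis and 855 in naive, so the 6% of highest doublet score in each library were removed, a rule set after seeing the data. This left 12920 and 13155 cells.

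Counts were scaled to 10000 per cell and logged, and 2000 variable genes, 30 components, 15 neighbours and Leiden clustering at resolution 1 were used (Python 3.11.15, scanpy 1.11.5, scipy 1.17.1, leidenalg 0.10.2). Clusters were named from 19 marker lists by thresholds revised after seeing the clusters, and the T/NK-like cluster was split further. Levels are summed counts per class with exact Poisson intervals, for classes of at least 50 cells, shares have Clopper-Pearson intervals, and ratios (at least 20 UMIs over both libraries) exact conditional binomial intervals. With 1 library per group no test was made, and "2-fold" is a size rule. Free RNA was taken from barcodes of 10 to 100 UMIs. PCR and capture error are not covered by the intervals. Intervals of levels, ratios and UMI shares also leave out the grouping of UMIs within cells. The genes named are the 8 members, all genes of the pathway lists described by count, and, for likeness, the 3 genes of highest correlation. The members and lists were chosen with earlier results of these data known. Alternatives changed the UMI, mitochondrial, doublet, clustering, naming, scaling and free RNA settings. Results for 1 gene of the pathway lists are not reported here.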

Additional observations from a re-analysis of the deposited data

Results flagged for a closer look

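Barcodes under 1000 UMIs, which the comparisons between classes used only as free RNA, summed to 16820597 UMIs in metastasis, against 16256061 in naive. All 8 genes were at a higher level there in metastasis. The share of all genes higher in these barcodes was not computed, so this is not a result about these 8 genes in particular. Ifng was at 2.44 CPM in metastasis against 1.05 CPM in naive (41 UMIs in metastasis and 17 in naive, 2.33-fold, 1.30 to 4.38). Ifnb1 was at 0.416 CPM in metastasis, on 7 UMIs, and had 0 UMIs in naive. For the receptors the levels, in metastasis against naive, were 87.3 against 61.3 CPM for Ifngr1, 50.5 against 13.2 CPM for Ifngr2, 27.4 against 14.7 CPM for Ifnar1, 62.5 against 41.4 CPM for Ifnar2 and 69.5 against 25.4 CPM for Il10rb. Tyk2 was at 9.33 CPM in metastasis against 4.86 CPM in naive. The fold was highest for Ifngr2 among the 6 receptor-side genes, at 3.84 (3.30 to 4.48).

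Il10rb moved in opposite directions in 2 classes, 2-fold higher in oligodendrocyte-like cells and 2-fold lower in endothelial-like cells, log2 ratios that lie 3.12 apart. This difference was not tested. In the endothelial-like cluster present in both libraries the Il10rb ratio was 0.32, and in oligodendrocyte-like cells it was 0.15 with free RNA subtracted.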

How the results depend on the processing

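No paired analysis was possible because each group has 1 library. Of 65 ratios, 3 were 2-fold higher. That count was 8 with at least 2000 UMIs per cell and 5 without doublet removal. It was 6 with each cell named by its own markers and 5 with cells weighted equally. The 3 that were 2-fold lower became 1 with cells weighted equally. With the endothelial-like class limited to the cluster present in both libraries, an alternative chosen after seeing the data, 0 were 2-fold lower. The 3 lower log2 ratios changed sign, to 0.19 for Ifnar1, 0.23 for Ifnar2 and 0.32 for Il10rb. Ifngr2 in that class went from 0.71 to -0.12. The T/NK-like share of Ifng UMIs in metastasis was 74.0% with each cell named by its own markers. The class of highest level also had the highest share in 9 of 12 cases after thinning, against 4 before. Leaving out shared barcodes, not splitting the T/NK-like cluster and keeping only ependymal-like clusters present in both libraries were also chosen after seeing the data. Of 979 ratios under alternatives, 957 stayed within the counting interval of the reported ratio and 19 moved outside it. The other 3 were ratios reported past 2-fold that changed sign. Part of the 957 could not move. Changing the UMI minimum for a ratio altered only which ratios were given. Limiting 1 class to shared clusters left the ratios of the other classes as they were. The 957 are therefore not a measure of robustness. Sign changes of ratios reported within 2-fold were not counted separately. The cause of these shifts was not tested. Among the ratios past 2-fold, Ifngr2 in mural-like cells stayed past it in 14 of 14 settings, and Ifngr2 in choroid plexus epithelium-like cells in 11 of 16. Both counts include settings that could not change these ratios. At least 2000 UMIs left no T/NK-like cluster and so no Ifng share. With 1 library per group, differences between animals, injection and library cannot be told apart.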

Other observations

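Inhibitors of interferon signalling were 2-fold higher in metastasis for 4 of 10 measured genes in ependymal-like cells (3.56% of all genes), Usp18 (log2 ratio 2.75), Ptpn6 (2.16), Socs3 (1.71) and Socs1 (1.16). The count was 3 of 9 in oligodendrocyte-like cells (4.78% of all genes) and 3 of 10 in choroid plexus epithelium-like cells (3.0%). In T/NK-like cells Socs1 had 19 UMIs in metastasis and 2 in naive (2.61, 0.56 to 5.76), and Ptpn2, a phosphatase gene, was 2-fold lower (-1.55, -2.90 to -0.31), with 4 genes measured. None of 8 measured inhibitors passed 2-fold in microglia-like cells. Of the sensors and factors that induce Ifnb1, 4 of 11 were 2-fold higher in ependymal-like cells, Zbp1 (5.50), Irf7 (3.98), Sting1 (1.70) and Ddx58 (1.29), and 5 of 11 in oligodendrocyte-like cells. In endothelial-like cells 2 of 10 were higher, Cgas (2.89, 0.35 to 8.22, on 1 naive UMI) and Sting1 (2.41), and 3 were lower, Irf7 (-2.28), Ifih1 (-1.66) and Zbp1 (-1.65, -3.12 to 0.02). Over all genes of that class 17.4% were higher and 17.3% lower, and its cells came from different clusters in the libraries. Ifnb1 itself had no UMI in either class.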
